A study of Mus musculus with 75 samples.

Results

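The 9 genes described here encode enzymes that make and use serine, glycine and folate-bound carbon units: Tdh, Gcat, Gldc, Shmt1, Shmt2, Mthfd2, Phgdh, Psat1 and Psph. They were taken by gene name from a table of 26218 genes measured in 75 mouse libraries of germ cells and of germ cell-like cells, and all 9 were found and passed the limit on low values in each experiment.

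Threonine dehydrogenase (Tdh) opens the mitochondrial breakdown of threonine, and Gcat then splits its product into glycine and acetyl-CoA. The mouse embryonic stem cell is known for a high level of Tdh and for its need of threonine. Gldc is the decarboxylase of the glycine cleavage system, which moves a carbon of glycine onto tetrahydrofolate. Shmt1 in the cytosol and Shmt2 in the mitochondrion turn serine into glycine and load folate in the same step, and Mthfd2 oxidises the loaded folate inside the mitochondrion. Phgdh, Psat1 and Psph are the consecutive enzymes that make serine from an intermediate of glycolysis. Folate-bound carbon serves the making of purines, thymidylate and, through methionine, the methyl groups of DNA and histones.

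The transcript 3′ ends of 1 ng of total RNA per library were amplified and sequenced. Embryonic germ cells came from crosses labelled ICR:C57BL/6=1:1, with 2 libraries in each group. Female and male groups cover each day from E12.5 to E15.5, and the E9.5, E10.5 and E11.5 groups carry no sex label. Cells up to E13.5 had the genotype Dppa3-EGFPTg/0 and were sorted for GFP. Those of E14.5 and E15.5, labelled fetal oocytes and prospermatogonia, had the genotype Ddx4-RFPTg/0 and were sorted for RFP, so reporter and stage cannot be told apart across that step. PGC-like cells (PGCLCs), which are germ cell-like cells derived from embryonic stem cells, carried Prdm1-mVenusTg/0 and Dppa3-ECFPTg/0 in every line and were grown on m220 feeder cells. The 129S1:C57BL/6=1:1 line gave RB, RA and CT cultures at culture days 5, 7 and 9, CT at day 3, and cells of day 0, with 2 libraries each. The labels do not spell out RB, RA or CT. They say that agents for the female fate were given from day 3, and the title of the series names bone morphogenetic protein and retinoic acid. In the DBA/2:C57BL/6=1:1 line, Stra8-/- cells (4 libraries a day, from the knockout lines SK1, with 2, SK2 and SK3) and wild-type cells (2 a day) were taken as CT at day 3 and as RB at days 5, 7 and 9. A further 7 groups had a single library each, and values alone are given for them: 0R3B of day 9, and 6 of a C57BL/6 line that also carried Gtrosa26tm1Sor/0. The labels do not say whether libraries of a group came from separate animals or cultures, so p-values measure the spread between these libraries, which may be technical.

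Values are in RPM, reads scaled to a common total of reads on genes, and log2 fold changes are of RPM + 1, which understates the change of genes at a few RPM. A gene was called, and is said to have risen or fallen, at a Benjamini-Hochberg adjusted p under 0.05 (limma, over all genes tested) if its log2 fold change was also 1 or more, or −1 or less. Estimated depth was 1.08 to 15.6 M reads, so that 3 reads stood for 0.192 to 2.78 RPM. Stra8 itself was at 77.9 to 483 RPM in knockout RB cells of day 9 and at 1717 to 1813 RPM in wild-type ones. Which part of the gene was deleted is not in the labels, so the remaining signal does not check the deletion. All 7 germ cell markers (Dppa3, Ddx4, Dazl, Prdm1, Tfap2c, Nanos3 and Dnd1) had signal in at least 1 library of every group. The median log2 fold change of all genes was not 0 in several comparisons: −0.14 for female against male at E15.5, 0.21 for male E15.5 against E11.5, 0.19 for RB and 0.20 for RA against CT at day 9, and 0.23 and 0.27 for the wild-type and knockout day 9 RB cells against day 3. In bulk samples, fewer cells of a type and less RNA per cell cannot be told apart.

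On GRCm38.p6, the RefSeq form of the mm10 build, Tdh lies at chr14:63492347-63509092 on the minus strand, Gcat at chr15:79030874-79042531 on the plus strand and Gldc at chr19:30098441-30175441 on the minus strand. Shmt1 (chr11:60788897-60811265), Shmt2 (chr10:127517123-127522444) and Mthfd2 (chr6:83305704-83326011) are on the minus strand too. So are Phgdh (chr3:98313171-98339969), Psat1 (chr19:15905123-15925059) and Psph (chr5:129765558-129787443). The strand used in counting is not given in the sources used here. Near their 3′ ends, exons of Tdh, Shmt1 and Shmt2 overlap a gene on the other strand, whose reads could not then be told apart from theirs. Exons of Psph also overlap a gene on the other strand, but nearer the 5′ end of Psph, while the libraries hold transcript 3′ ends. The partners in the table are Smcr8 for Shmt1, with group means of 18.0 to 56.95 RPM, Ndufa4l2 for Shmt2, with 0 to 5.26 RPM, and Cct6a for Psph, with 5.81 to 54.0 RPM. The annotation also holds a pseudogene named Phgdh-ps1, so reads of Phgdh are uncertain to the extent that the counting split them.

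Phgdh and Psat1 follow each other in serine synthesis and took opposite courses in the male germ line, so the 250 bases before their RefSeq start sites are shown (GRCm38.p6, minus strand, 5′ to 3′, from chr3:98339970-98340219 and chr19:15925060-15925309). Capitals mark CG dinucleotides, of which Phgdh has 7 and Psat1 16, and the GC content is 44% in Phgdh and 59.6% in Psat1.
Phgdh: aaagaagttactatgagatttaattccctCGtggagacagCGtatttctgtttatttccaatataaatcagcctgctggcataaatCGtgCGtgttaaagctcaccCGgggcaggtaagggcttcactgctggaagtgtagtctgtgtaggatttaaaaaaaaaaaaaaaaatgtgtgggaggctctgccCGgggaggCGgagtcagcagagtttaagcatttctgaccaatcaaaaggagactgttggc
Psat1: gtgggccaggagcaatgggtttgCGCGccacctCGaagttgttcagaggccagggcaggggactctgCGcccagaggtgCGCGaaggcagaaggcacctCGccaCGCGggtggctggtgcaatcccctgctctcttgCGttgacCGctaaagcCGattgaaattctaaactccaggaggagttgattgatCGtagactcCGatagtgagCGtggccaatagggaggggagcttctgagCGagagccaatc

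Promoter windows of 300 bases (250 before and 50 after the start) were found for 8 of the 9 genes, with 2 windows for Psat1. None was found for Tdh. The Mthfd2 window (chr6:83317555-83317854) lies inside the gene span given above, and so does the Psat1 window at chr19:15924573-15924872. For Mthfd2 the sequence before the outer end of that span was not searched. Both strands were searched for TGATGNAA, a form of the site bound by the amino acid response factor Atf4, and for CACGTG, the E-box bound by Myc family factors, which do not overlap in sequence. TGATGNAA was in 0 of the 9 windows, and in 3.97% of the 32851 promoter windows of all genes. CACGTG was in the Gcat window alone, beginning at base 3 of the transcript, and in 7.15% of all windows. The 30 bases around it, from chr15:79030864-79030893 on the plus strand, are shown with that match in capitals.
Gcat: ccctgcccacgtCACGTGacggggagcact

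Germ cells of both sexes lost nearly all Tdh transcript between E11.5 and E15.5. Tdh was at 411 and 438 RPM at E9.5, at 509 and 480 RPM at E10.5 and at 405 and 404 RPM at E11.5. Female libraries then had 325 and 299.8 RPM at E12.5, 199.5 and 207 RPM at E13.5, 12.4 and 17.5 RPM at E14.5, and 4.56 and 3.06 RPM at E15.5. Male libraries had 248 and 237 RPM at E12.5, 187 and 177 RPM at E13.5, 13.3 and 15.7 RPM at E14.5, and 12.2 and 11.3 RPM at E15.5. The libraries of E14.5 and E15.5 lay far below every earlier one in both sexes, with the change of sorting reporter falling in the same step. Against E11.5, the log2 fold change of Tdh at E15.5 was −6.42 in females (SE 0.15, adjusted p = 2.33e-20, limma) and −4.99 in males (SE 0.15, adjusted p = 1.22e-17). The sexes overlapped at E14.5 (log2 fold change 0.03, adjusted p = 0.883), and at E15.5 the female libraries were the lower ones (log2 fold change −1.42, SE 0.15, adjusted p = 1.58e-08). With a pseudocount of 5 that E15.5 difference was −0.93, short of a call.

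Gcat, the partner of Tdh, fell in females by E15.5 against E11.5 (log2 fold change −3.05) and was not called in males (−0.29). Gcat stood at 78.9 and 75.7 RPM at E9.5, 96.9 and 96.7 RPM at E10.5 and 112 and 114 RPM at E11.5. In females it was at 90.0 and 109 RPM at E12.5, 93.1 and 83.0 RPM at E13.5, 48.6 and 34.8 RPM at E14.5, and 12.47 and 13.08 RPM at E15.5. In males it was at 73.7 and 52.9 RPM at E12.5, 36.5 and 36.4 RPM at E13.5, 95.2 and 83.2 RPM at E14.5, and 89.7 and 95.6 RPM at E15.5. The male libraries of E13.5 were thus a low point, and from E14.5 all male libraries lay above all female ones. The sex difference turned: Gcat was higher in females at E13.5 (log2 fold change 1.25, SE 0.17, adjusted p = 5.11e-06, limma) and lower in females at E14.5 (−1.09, adjusted p = 4.15e-06) and at E15.5 (−2.77, adjusted p = 7.03e-13). The E14.5 call was lost without E14.5 male replicate 1 (−0.998) and without E14.5 female replicate 2 (−0.86).

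Shmt1 and Shmt2, which load folate from serine, fell in females by E15.5 against E11.5 (log2 fold changes −4.04 and −3.33) and were not called in males (−0.33 and 0.84). Shmt1 was at 148 and 164 RPM at E9.5, 163 and 159 RPM at E10.5 and 149.9 and 168 RPM at E11.5. Female libraries had 156 and 138 RPM at E12.5, 92.8 and 111 RPM at E13.5, 22.4 and 14.52 RPM at E14.5, and 9.43 and 8.07 RPM at E15.5. Male libraries had 189 and 221 RPM at E12.5, 186 and 204 RPM at E13.5, 138 and 128 RPM at E14.5, and 130.4 and 121 RPM at E15.5. Every male library lay above every female library of its stage. Shmt1 was lower in females by 2.81 at E14.5 (SE 0.16, adjusted p = 2.98e-13, limma) and by 3.70 at E15.5 (adjusted p = 1.27e-15) on the log2 scale. At E12.5 and E13.5 it was not called (−0.47, adjusted p = 0.0488, and −0.94, adjusted p = 7.85e-05). Its opposite-strand neighbour Smcr8 averaged 30.02 RPM in E15.5 females and 20.3 RPM in E15.5 males.

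Shmt2, the mitochondrial form, separated the sexes from E12.5 on. Its female libraries had 25.03 and 23.4 RPM at E12.5, 27.4 and 25.01 RPM at E13.5, 10.6 and 3.01 RPM at E14.5, and 3.95 and 2.78 RPM at E15.5. Its male libraries had 67.0 and 75.2 RPM at E12.5, 86.3 and 76.5 RPM at E13.5, 99.1 and 99.7 RPM at E14.5, and 71.1 and 83.3 RPM at E15.5. No female library reached a male one at any of the 4 stages, and Shmt2 was the only one of the 9 genes called between the sexes at E12.5 (log2 fold change −1.51, SE 0.30, adjusted p = 0.00133, limma). The fold change was −1.598 at E13.5 (adjusted p = 0.000238), −3.88 at E14.5 (adjusted p = 7.15e-11) and −4.17 at E15.5 (adjusted p = 1.32e-11). The lowest female values rest on 10 to 13 reads each.

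Gldc was at its highest in females of E12.5 and declined afterwards in both sexes. It was at 132 and 149 RPM at E9.5, 234 and 211 RPM at E10.5 and 215 and 216 RPM at E11.5. Female libraries had 348 and 349 RPM at E12.5, 215 and 214 RPM at E13.5, 56.0 and 44.9 RPM at E14.5, and 29.8 and 18.7 RPM at E15.5. Male libraries had 196 and 206 RPM at E12.5, 106 and 120.5 RPM at E13.5, 87.1 and 73.7 RPM at E14.5, and 68.6 and 78.3 RPM at E15.5. Female libraries were above male ones at E12.5 and E13.5 and below them at E14.5 and E15.5, without overlap. Only the E15.5 difference was called (log2 fold change −1.59, SE 0.16, adjusted p = 4.14e-09, limma). Mthfd2 moved little. Its female libraries lay at 22.3 to 55.1 RPM and its male ones at 31.1 to 61.0 RPM from E12.5 to E15.5, and no comparison in the embryo called it with all libraries (E15.5, log2 fold change −0.74, adjusted p = 0.00202).

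The largest sex difference of the 9 genes was in Phgdh, which opens serine synthesis. Phgdh was at 87.0 and 74.2 RPM at E9.5, 41.3 and 39.3 RPM at E10.5 and 34.9 and 38.5 RPM at E11.5. Female libraries had 12.2 and 19.2 RPM at E12.5, 18.2 and 14.1 RPM at E13.5, 2.65 and 2.19 RPM at E14.5, and 0.608 and 1.67 RPM at E15.5. Male libraries had 26.0 and 18.2 RPM at E12.5, 24.1 and 18.7 RPM at E13.5, 205 and 231 RPM at E14.5, and 301 and 394 RPM at E15.5. The sexes overlapped at E12.5 and lay close at E13.5. At E14.5 the female libraries were the lowest seen up to then and the male ones the highest. The fold change was −6.00 at E14.5 (SE 0.26, adjusted p = 3.47e-15, limma) and −7.38 at E15.5 (adjusted p = 5.5e-17) on the log2 scale. Against E11.5, E15.5 females fell by 4.18 (adjusted p = 8.18e-13) and E15.5 males rose by 3.20 (adjusted p = 2.07e-10). The female values of E15.5 rest on 2 and 6 reads, below and just above the 3 reads taken as measurable.

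Psat1, the next enzyme, went the other way. It was at 185 and 173 RPM at E9.5, 231 and 233 RPM at E10.5 and 162 and 163 RPM at E11.5. Female libraries had 211 and 176 RPM at E12.5, 212 and 219 RPM at E13.5, 109 and 81.6 RPM at E14.5, and 64.5 and 54.8 RPM at E15.5. Male libraries had 169 and 186 RPM at E12.5, 107 and 100.1 RPM at E13.5, 42.5 and 39.4 RPM at E14.5, and 24.8 and 31.1 RPM at E15.5. From E13.5 all female libraries lay above all male ones, with log2 fold changes of 1.05 at E13.5 (adjusted p = 5.48e-06, limma), 1.19 at E14.5 (adjusted p = 1.08e-07) and 1.07 at E15.5 (adjusted p = 3.98e-07). Each of these stood close to the limit of 1 and was lost when a library was left out: 0.999 without E13.5 male replicate 2, 0.979 without E14.5 female replicate 1, 0.916 without E15.5 male replicate 1 and 0.957 without E15.5 female replicate 1. Both sexes fell below E11.5 by E15.5, females by 1.44 (adjusted p = 3.16e-09) and males by 2.51 (adjusted p = 3.41e-13).

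Psph, which finishes serine, was at 48.3 and 40.7 RPM in female libraries of E12.5 and at 28.3 and 35.6 RPM in those of E15.5. Male libraries had 40.9 and 48.1 RPM at E12.5 and 77.4 and 61.1 RPM at E15.5. In between, female libraries had 49.3 and 45.2 RPM at E13.5 and 44.2 and 27.7 RPM at E14.5. Male libraries had 52.7 and 52.2 RPM at E13.5 and 67.5 and 60.6 RPM at E14.5. The sexes overlapped at E12.5 alone, with females lower from E13.5. Psph was called only at E15.5 (log2 fold change −1.09, SE 0.19, adjusted p = 2.57e-05, limma). The call was lost without E15.5 male replicate 1 (−0.92) or E15.5 female replicate 1 (−0.93).

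Counted over the 9 genes, the calls between the sexes were 1 lower in females at E12.5 (6.53% of all genes tested were called), 2 higher and 1 lower at E13.5 (16.7%), 1 higher and 4 lower at E14.5 (48.3%), and 1 higher and 7 lower at E15.5 (53.6%). At E14.5 and E15.5 a large share of all genes was called, so those counts are read against a high background. The median of the 9 log2 fold changes at E15.5 was −1.59, and −0.14 over all genes. Over time, Phgdh alone fell at E11.5 against E9.5 (11.4%; log2 fold change −1.111, adjusted p = 0.00293, limma, and −0.998 without E9.5 replicate 1). Markers of other cells were lower at E11.5 too: the 6 blood and endothelium markers summed to 113.5 to 126.6 RPM at E11.5 and 2994 to 3190 RPM at E9.5, and the 7 fibroblast and feeder markers to 3.41 to 5.13 RPM at E11.5 and 106 to 108 RPM at E9.5. Their part in the fall of Phgdh was not tested. Phgdh alone fell in females at E13.5 against E11.5 (22.9%; −1.15, adjusted p = 0.00107, and −0.98 without E13.5 female replicate 2), and Tdh and Gcat fell in males at E13.5 (15.6%; −1.15 and −1.61). At E15.5 against E11.5, 7 genes fell in females (52.6%), all but Mthfd2 and Psph, and in males Phgdh rose while Tdh, Gldc and Psat1 fell (47.1%). Comparisons with E11.5 in females and in males share the E11.5 libraries.

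The change of the sex difference between E12.5 and E15.5 was tested directly, and 7 of the 9 genes passed (49.9% of all genes did), all toward lower values in females. The change was −6.90 for Phgdh (SE 0.37, adjusted p = 3.71e-13, limma), −3.42 for Gcat, −3.23 for Shmt1, −2.66 for Shmt2, −2.39 for Gldc, −1.79 for Tdh and −1.09 for Psph. Psph lost its call without any of 4 libraries (E12.5 male or female replicate 1, −0.98 and −0.97, and E15.5 male or female replicate 1, −0.92 and −0.93). Over all genes, 27.7% passed toward lower values in females. Markers of gonadal somatic cells moved with sex as well. The summed signal of the 8 markers was 0.348 to 1.69 RPM in E12.5 females and 5.84 to 7.07 RPM in E12.5 males. At E13.5 it was 0.641 to 1.15 RPM in females and 18.7 to 20.0 RPM in males. At E14.5 it was 7.07 to 7.12 RPM in females and 34.9 to 60.0 RPM in males. At E15.5 it was 5.48 to 8.07 RPM in females and 26.8 to 30.4 RPM in males. All 4 of these markers that could be tested were lower in females at E14.5 and 3 of 4 at E15.5, and the Sertoli cell hormone Amh was at 0 in every embryo group of both sexes. The 7 fibroblast and feeder markers summed to 28.9 to 39.7 RPM in E14.5 females and 50.3 to 117 RPM in E14.5 males, with 3 of 5 tested lower in females. At E15.5 they summed to 5.78 to 31.2 RPM in females and 70.0 to 92.5 RPM in males, with 5 of 5 lower in females. The 7 naive pluripotency markers summed to 857 to 949 RPM in E12.5 females and 828 to 893 RPM in E12.5 males. At E13.5 they summed to 632 to 643 RPM in females and 659 to 723 RPM in males. At E14.5 they were at 94.9 to 109.7 RPM in females and 531.3 to 531.4 RPM in males. At E15.5 they were at 63.9 to 70.4 RPM in females and 456 to 461 RPM in males. The part of these marker lists in the sex differences was not tested.

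**Figure D1:**
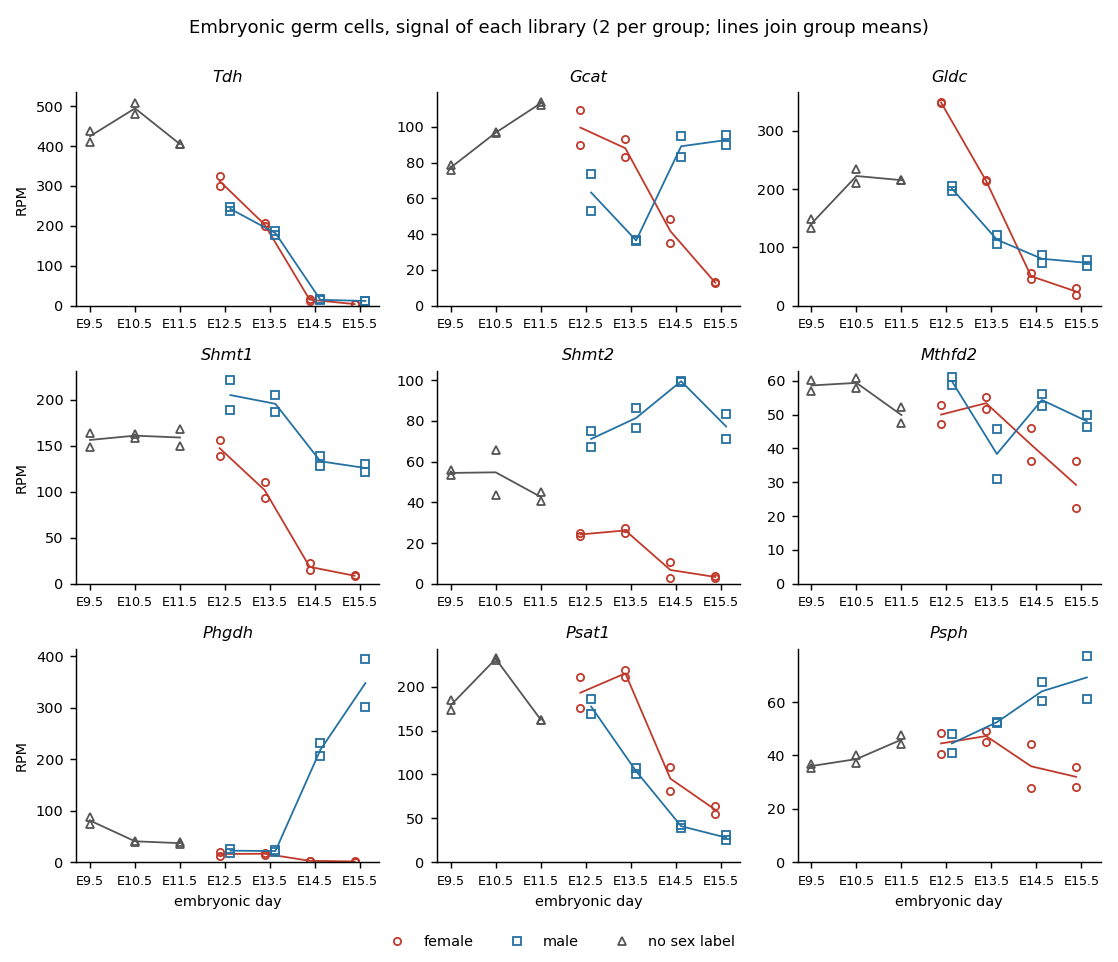
Signal of the 9 genes in embryonic germ cells, in RPM on linear axes that start at 0, against embryonic day. Points are single libraries (circles female, squares male, triangles groups with no sex label), and lines join the means of the 2 libraries. Both female Phgdh libraries of E15.5 are under 2 RPM, against 301 and 394 RPM in the male ones, and female Psat1 lies above male Psat1 from E13.5.

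Phgdh, Mthfd2 and Shmt2 were lower in PGCLCs after 3 days on feeder cells than at day 0. Phgdh was at 32.6 and 32.1 RPM in CT cells of day 3, against 127 and 143 RPM at day 0 (log2 fold change −2.03, SE 0.24, adjusted p = 4.6e-06, limma). Mthfd2 was at 61.8 and 48.6 RPM at day 3, against 112 and 129 RPM at day 0, and Shmt2 at 49.0 and 53.4 RPM at day 3, against 97.96 and 137 RPM at day 0. None of these libraries of day 3 reached a library of day 0. Mthfd2 fell by 1.12 (adjusted p = 0.000696) and Shmt2 by 1.16 (adjusted p = 0.000795), so 3 of the 9 genes fell where 5.47% of all genes were called. The Mthfd2 value was −0.95 without CT day 3 replicate 2, and the Shmt2 value −0.92 without day 0 replicate 2, each short of a call. Psat1 was at 194 and 190.1 RPM at day 3, against 343 and 371 RPM at day 0 (−0.89, adjusted p = 8.69e-05, not called). Psph, the other serine synthesis gene, overlapped between the days, with 53.0 and 50.1 RPM at day 3 and 63.1 and 50.7 RPM at day 0 (−0.13, adjusted p = 0.745). Fibroblast and feeder markers summed to 50.0 to 61.5 RPM at day 3 and 2.05 to 2.54 RPM at day 0, and their part was not tested. In CT cultures, from day 3 to day 9 none of the 9 genes was called (limma, 2.25% of all genes were), and 1 had an unadjusted p under 0.05. That gene was Tdh (358 and 353 RPM at day 9, against 554 and 534 RPM at day 3; log2 fold change −0.61, adjusted p = 0.149).

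RB cultures lost Tdh, Gldc and Shmt1 from day 7 and Gcat by day 9. Tdh was at 370.2 and 296 RPM in RB cells at day 5, at 109.7 and 63.7 RPM at day 7, and at 45.7 and 26.0 RPM at day 9. CT cells had 492 and 426 RPM at day 5, 411 and 389 RPM at day 7, and 358 and 353 RPM at day 9. RB libraries were below CT libraries on each day, and the gap widened with time. The log2 fold change was −0.47 at day 5 (adjusted p = 0.583, limma), −2.24 at day 7 (SE 0.24, adjusted p = 2.29e-07) and −3.33 at day 9 (adjusted p = 6.92e-11).

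Gldc followed the same order. RB cells had 60.0 and 64.9 RPM at day 9, against 241 and 265 RPM in CT cells (log2 fold change −1.999, SE 0.15, adjusted p = 2.31e-10, limma). At day 7 they had 101.5 and 100.2 RPM, against 306 and 302 RPM in CT cells (−1.58, adjusted p = 6.56e-08). Shmt1 was at 39.7 and 27.4 RPM in RB cells of day 9, against 121 and 156 RPM in CT cells (−2.03, adjusted p = 1.35e-08), and Gcat at 28.2 and 36.5 RPM, against 101.9 and 88.9 RPM (−1.54, adjusted p = 2.26e-07). None of these 4 genes overlapped between RB and CT at day 9. The Shmt1 call of day 7 (−1.07) ended without CT day 7 replicate 2 (−0.98).

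Phgdh was low in RB cells on all 3 days. It was at 15.4 and 19.1 RPM at day 5, 16.0 and 18.6 RPM at day 7, and 16.3 and 14.2 RPM at day 9 in RB cells. In CT cells it was at 35.9 and 44.3 RPM at day 5, 47.0 and 29.7 RPM at day 7, and 38.6 and 36.9 RPM at day 9. All RB libraries were below all CT libraries of their day. Phgdh was the only gene of the 9 called at day 5 (log2 fold change −1.17, adjusted p = 0.0149, limma), and it was also called at day 7 (−1.07, adjusted p = 0.00169) and day 9 (−1.25, adjusted p = 0.00013). The day 5 call was lost without RB day 5 replicate 1 (adjusted p = 0.155), CT day 5 replicate 2 (adjusted p = 0.205) or RB day 5 replicate 2 (adjusted p = 0.0704), and with no filter on low values (adjusted p = 0.0564). The day 7 call was lost without CT day 7 replicate 1 (−0.75) or RB day 7 replicate 1 (−0.97).

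Shmt2, Mthfd2, Psat1 and Psph gave no call between RB and CT with all libraries and no further scaling. Psat1 was at 109 and 109.7 RPM in RB cells of day 9, against 178 and 177 RPM in CT cells (log2 fold change −0.69, adjusted p = 0.00011, limma), and Shmt2 at 27.0 and 33.5 RPM, against 43.7 and 64.4 RPM (−0.80, adjusted p = 0.00265). Psph was at 89.9 and 83.6 RPM in RB cells of day 7, against 59.8 and 48.8 RPM in CT cells (0.67, adjusted p = 0.0037). In these 3 cases the groups did not overlap. At day 9, median centring called Shmt2 (−1.12) and Psat1 (−1.01) lower, and quantile normalization called Shmt2 (−1.09). In all, RB against CT gave 1 lower gene at day 5 (0.674% of all genes were called), 4 at day 7 (19.3%) and 5 at day 9 (36.7%), and none higher. Over all genes, 0.118% were called lower at day 5, 3.62% at day 7 and 12.1% at day 9. The median over the 9 genes at day 9 was −1.25, and 0.19 over all genes. Naive pluripotency markers moved with these genes: the 7 markers summed to 238 to 277 RPM in RB cells of day 9 and 1458 to 1511 RPM in CT cells. Fibroblast and feeder markers summed to 15.3 to 40.9 RPM in RB cells and 38.2 to 95.4 RPM in CT cells. Gonadal somatic markers summed to 14.0 to 27.8 RPM in RB cells and 0.647 to 3.21 RPM in CT cells. Blood and endothelium markers summed to 18.9 to 32.5 RPM in RB cells and 73.6 to 97.8 RPM in CT cells. Among them Hbb-y, Hba-x, Cdh5 and Ptprc were at 0 in both, which leaves Hba-a1 and Pecam1 alone in these sums. The part of these marker lists in these differences was not tested.

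The widening between day 5 and day 9 was tested as a change of the RB against CT difference, and it was called for 5 of the 9 genes (29.7% of all genes), all downward. The change was −2.86 for Tdh (SE 0.34, adjusted p = 7.59e-07, limma), −2.16 for Shmt1, −1.57 for Gldc, −1.55 for Gcat and −1.08 for Shmt2. Shmt2 lost its call without CT day 5 replicate 1 (−0.97), RB day 9 replicate 1 (−0.93) or CT day 9 replicate 2 (−0.80). For Phgdh the change was −0.08 (SE 0.34, adjusted p = 0.872). Over all genes, 9.54% were called downward in this test.

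**Figure D2:**
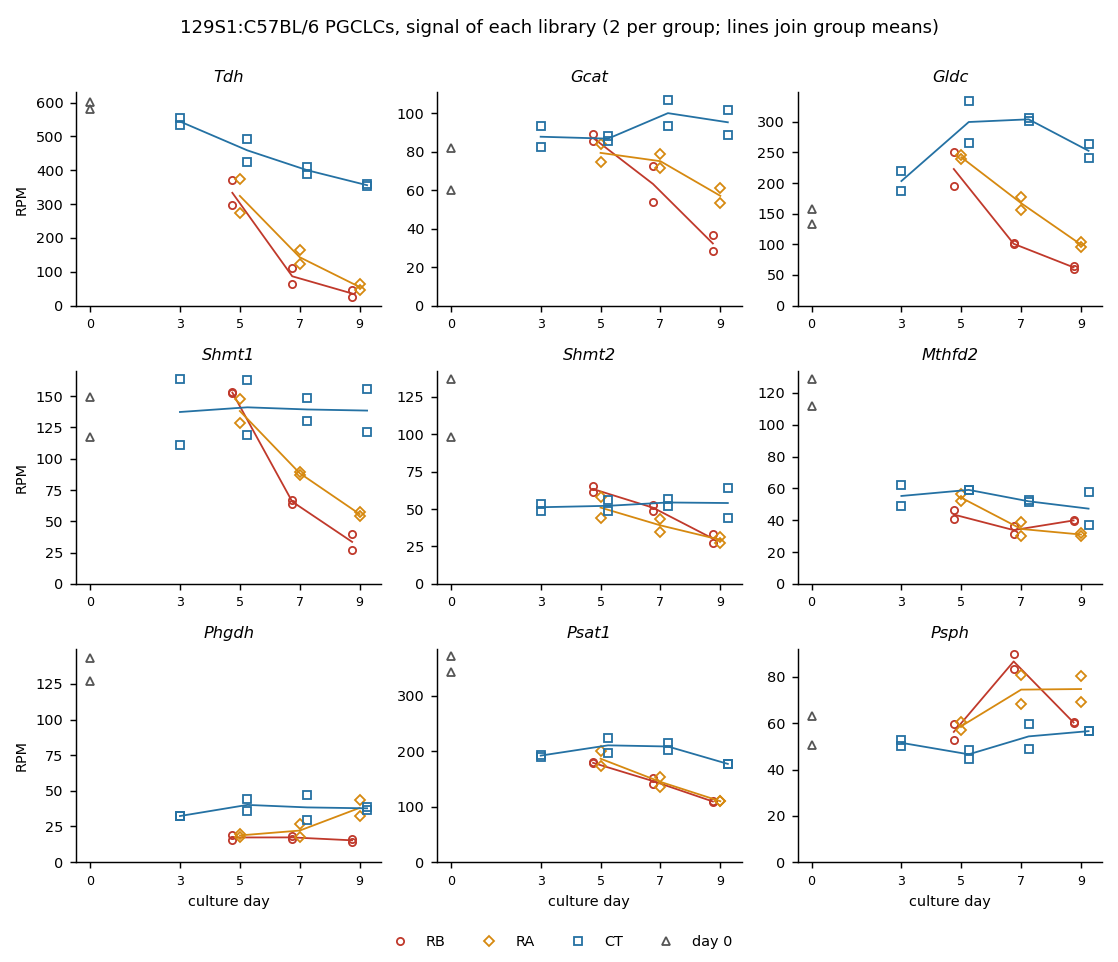
Signal of the 9 genes in PGCLCs of the 129S1:C57BL/6 line, in RPM on linear axes that start at 0, against culture day. Points are single libraries (circles RB, diamonds RA, squares CT, triangles day 0), and lines join the means of the 2 libraries. Tdh declines in RB and RA cells to under 65 RPM at day 9, and Phgdh of RA cells returns to the CT level there while that of RB cells does not.

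RA cultures had fewer calls against CT than RB cultures had, with Tdh, Gldc and Shmt1 lower by day 9. Tdh was at 375 and 274 RPM in RA cells at day 5, 164 and 122 RPM at day 7, and 64.9 and 45.1 RPM at day 9. It was lower than in CT cells at day 7 (log2 fold change −1.49, SE 0.24, adjusted p = 0.00025, limma) and at day 9 (−2.69, adjusted p = 1.92e-08). At day 9 Gldc was at 94.8 and 104 RPM in RA cells, against 241 and 265 RPM in CT cells (−1.33, adjusted p = 1e-06), and Shmt1 at 57.7 and 53.9 RPM, against 121 and 156 RPM (−1.29, adjusted p = 4.95e-05). RA libraries lay below CT libraries for these 3 genes. RA against CT gave 0 calls among the 9 genes at day 5 (limma, 0.244% of all genes, with 2 of the 9 at an unadjusted p under 0.05). It gave 1 at day 7 (5.21%) and 3 at day 9 (16.3%), all lower. Over all genes, 0.531% were called lower at day 7 and 3% at day 9. The closest at day 5 was Phgdh (20.0 and 17.4 RPM in RA cells, against 35.9 and 44.3 RPM in CT cells; −1.06, adjusted p = 0.0613). Without CT day 7 replicate 2, Phgdh was called at day 7 too (−1.08).

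Between RB and RA cells only Phgdh was called. At day 9 Phgdh was at 16.3 and 14.2 RPM in RB cells, against 43.5 and 32.5 RPM in RA cells, without overlap (log2 fold change −1.25, SE 0.24, adjusted p = 0.00023, limma). Fibroblast and feeder markers summed to 15.3 to 40.9 RPM in RB cells and 103 to 184 RPM in RA cells, and naive pluripotency markers to 238 to 277 RPM in RB cells and 595 to 641 RPM in RA cells. The part of either was not tested. Gcat (−0.81, adjusted p = 0.00104), Shmt1 (−0.74, adjusted p = 0.00477) and Gldc (−0.66, adjusted p = 0.00127) were lower in RB cells without reaching the limit of 1. Tdh was at 45.7 and 26.0 RPM in RB cells of day 9, against 64.9 and 45.1 RPM in RA cells. These libraries overlapped, and Tdh was not called with all libraries. By limma no gene of the 9 was called at day 5 (0.0421% of all genes) or day 7 (4.62%), where 0 and 3 of them had an unadjusted p under 0.05, and Phgdh was 1 of 9 at day 9 (24.8%). Leaving out a single library moved these counts. Without RB day 7 replicate 1, Tdh was called at day 7 (−1.14, adjusted p = 0.0148), and without RB day 9 replicate 1, Tdh (−1.03) and Shmt1 (at the limit of −1) were called at day 9. The comparisons of RB with CT and of RB with RA share the RB libraries, and those of RB and RA with CT share the CT libraries.

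In the Stra8 experiment, RB cells of day 9 were compared with CT cells of day 3, so culture and day cannot be told apart. Wild-type cells had 7 of the 9 genes called lower and knockout cells 4. Tdh was at 24.3 and 22.01 RPM in wild-type RB cells of day 9, against 502 and 453 RPM in wild-type CT cells of day 3 (log2 fold change −4.31, adjusted p = 2.98e-19, limma). Knockout RB cells of day 9 had 50.3, 62.7, 52.3 and 68.8 RPM, against 497, 409, 533 and 468 RPM in knockout CT cells of day 3 (−3.01, adjusted p = 1.08e-19). In wild-type cells Shmt2 fell by 2.59, Gcat by 2.197, Shmt1 by 1.88, Gldc by 1.72, Phgdh by 1.31 and Psat1 by 1.14, and 43.7% of all genes were called. Psat1 was at −0.995 without Stra8 WT CT day 3 replicate 2. In knockout cells Gcat fell by 1.65, Shmt1 by 1.52 and Shmt2 by 1.52, with 33.9% of all genes called. Gldc (−0.57) and Psat1 (−0.65) stayed short of a call there, though Psat1 was called with median centring (−1.02). Phgdh stood at 62.3, 47.4, 47.8 and 37.9 RPM in knockout RB cells of day 9, against 29.8, 20.9, 20.4 and 24.1 RPM in knockout CT cells of day 3, with no overlap. Fibroblast and feeder markers differed between these groups as well. In wild-type cells they summed to 7.02 to 23.5 RPM in RB of day 9 and 143 to 156 RPM in CT of day 3. In the knockout they summed to 7.197 to 14.4 RPM at day 9 and 118 to 172 RPM at day 3. Naive pluripotency markers summed to 207 to 208 RPM in wild-type cells of day 9 and 1320 to 1361 RPM at day 3, and to 435 to 511 RPM in knockout cells of day 9 and 1312 to 1533 RPM at day 3. The part of either was not tested. The log2 fold change of Phgdh in the knockout, 1.00 (SE 0.24, adjusted p = 0.000651), was just under the limit, and it was called with a pseudocount of 0.25 (1.02) and without any of 5 of the 8 libraries (1.003 to 1.112).

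None of the 9 genes was called between knockout and wild-type cells at days 3 and 5, and knockout cells had more Tdh from day 7 and more Gldc and Phgdh at day 9. Tdh was at 50.3, 62.7, 52.3 and 68.8 RPM in knockout RB cells of day 9, against 24.3 and 22.01 RPM in wild-type ones. At day 7 the knockout cells had 167, 185, 152 and 199 RPM, against 73.1 and 54.4 RPM in the wild type. Every knockout library lay above both wild-type libraries on both days. The log2 fold change was 1.45 at day 7 (SE 0.15, adjusted p = 5.74e-08, limma) and 1.29 at day 9 (adjusted p = 3.49e-08). The wild-type libraries all carry the name WT, with no separate lines, so genotype cannot be told apart from that line. The tests take both SK1 libraries as separate.

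Gldc at day 9 was at 161, 157, 144 and 169.99 RPM in knockout cells, against 85.6 and 59.5 RPM in the wild type (log2 fold change 1.13, SE 0.14, adjusted p = 1.27e-07, limma). The call was lost without Stra8 WT RB day 9 replicate 2 (0.87). Phgdh at day 9 was at 62.3, 47.4, 47.8 and 37.9 RPM in knockout cells, against 14.3 and 12.6 RPM in the wild type (1.77, SE 0.30, adjusted p = 1.82e-05). Neither gene overlapped between the genotypes. Shmt1 (0.76, adjusted p = 0.000831), Shmt2 (0.92, adjusted p = 0.0143), Gcat (0.49, adjusted p = 0.0436) and Psat1 (0.40, adjusted p = 0.0104) had smaller differences, and Mthfd2 (−0.02, adjusted p = 0.947) and Psph (0.12, adjusted p = 0.669) had the smallest. Without Stra8 WT RB day 9 replicate 1, Shmt1 (1.10) and Shmt2 (1.45) were called as well. Shmt2 was also called without SK2 (1.04) or without SK1 replicate 2 (1.08). Its genotypes overlapped, with 10.0, 11.1 and 13.9 RPM in knockout libraries and 28.2 RPM in SK1 replicate 1, against 10.9 and 4.68 RPM in wild-type libraries.

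Among the 9 genes, knockout against wild type gave 0 calls at day 3 (0.00819% of all genes were called) and 0 at day 5 (0.0164%), with 1 gene on each of these days at an unadjusted p under 0.05 (limma), and 1 at day 7 (8.73%) and 3 at day 9 (19.1%), all higher in the knockout. The growth of the difference from day 3 to day 9 was called for the same 3 genes (14.9% of all genes): 2.31 for Phgdh (SE 0.42, adjusted p = 0.000141, limma), 1.30 for Tdh (SE 0.21, adjusted p = 3.59e-05) and 1.15 for Gldc (SE 0.20, adjusted p = 8.39e-05). Of all genes, 3.16% were called higher at day 7, 10.8% at day 9 and 8.66% in the growth. For Gldc the growth was 0.89 without Stra8 WT RB day 9 replicate 2. Shmt2 had 1.07 (SE 0.42, adjusted p = 0.0641), and was called where the lines and replicates were kept as blocks (adjusted p = 0.0436), where the SK1 libraries were averaged (1.04, adjusted p = 0.0442), and without Stra8 WT RB day 9 replicate 1 (1.604), SK2 (1.19) or SK1 replicate 2 (1.24) at RB day 9. Naive pluripotency markers summed to 435 to 511 RPM in knockout RB cells of day 9 and 207 to 208 RPM in wild-type ones, with 4 of 7 called higher. Gonadal somatic markers summed to 11.6 to 19.6 RPM in the knockout and 15.0 to 15.1 RPM in the wild type, and fibroblast and feeder markers to 7.197 to 14.4 RPM and 7.02 to 23.5 RPM in the same order. The 6 blood and endothelium markers summed to 65.4 to 107.7 RPM in the knockout and 21.1 to 34.4 RPM in the wild type. Among them Hbb-y, Hba-x and Ptprc were at 0 in both, and Pecam1, the only one tested, was higher in the knockout (log2 fold change 1.69). The part of the pluripotency and the blood and endothelium markers in the difference was not tested.

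**Figure D3:**
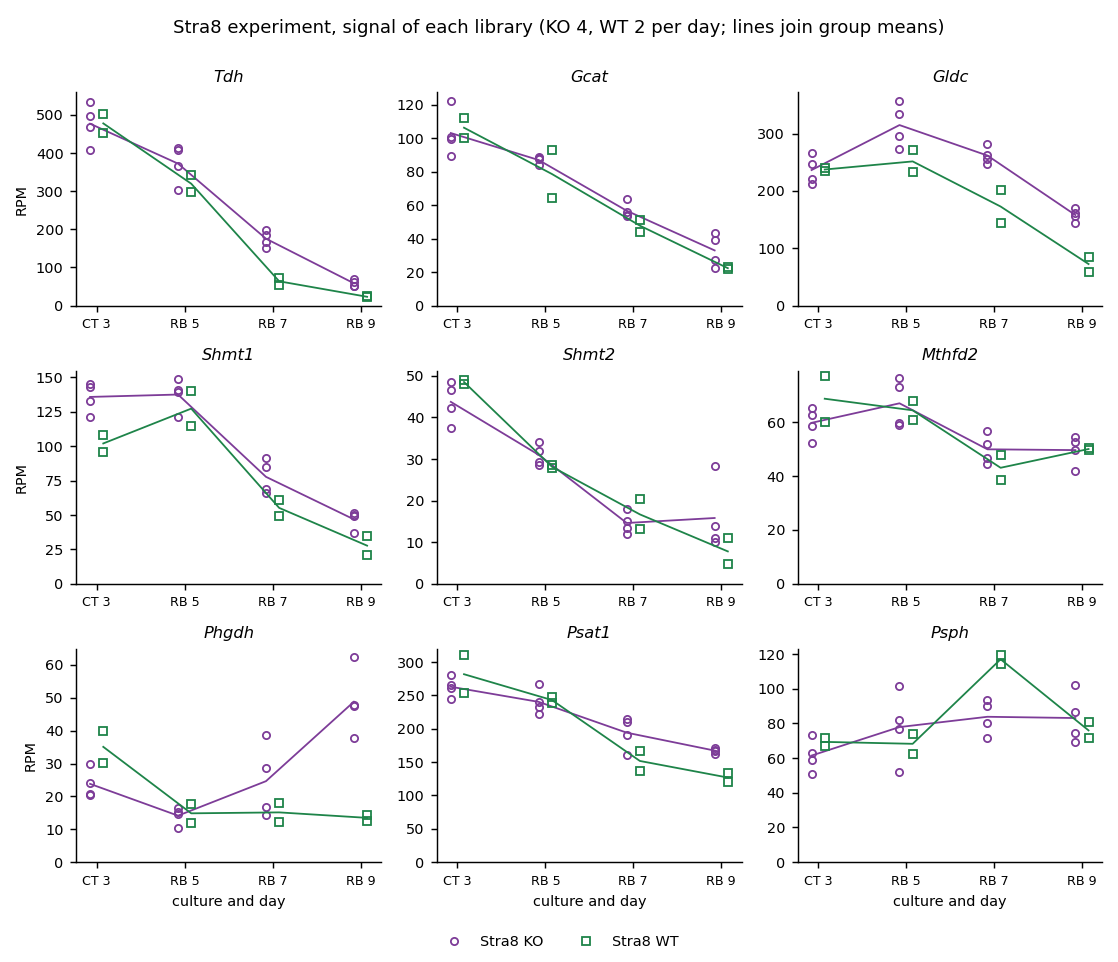
Signal of the 9 genes in the Stra8 experiment, in RPM on linear axes that start at 0, against culture and day. Circles are knockout libraries (4 a day) and squares wild-type libraries (2 a day), and lines join group means. At RB day 9 Phgdh is at 37.9 to 62.3 RPM in knockout cells, against 12.6 and 14.3 RPM in wild-type cells.

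**Figure D4:**
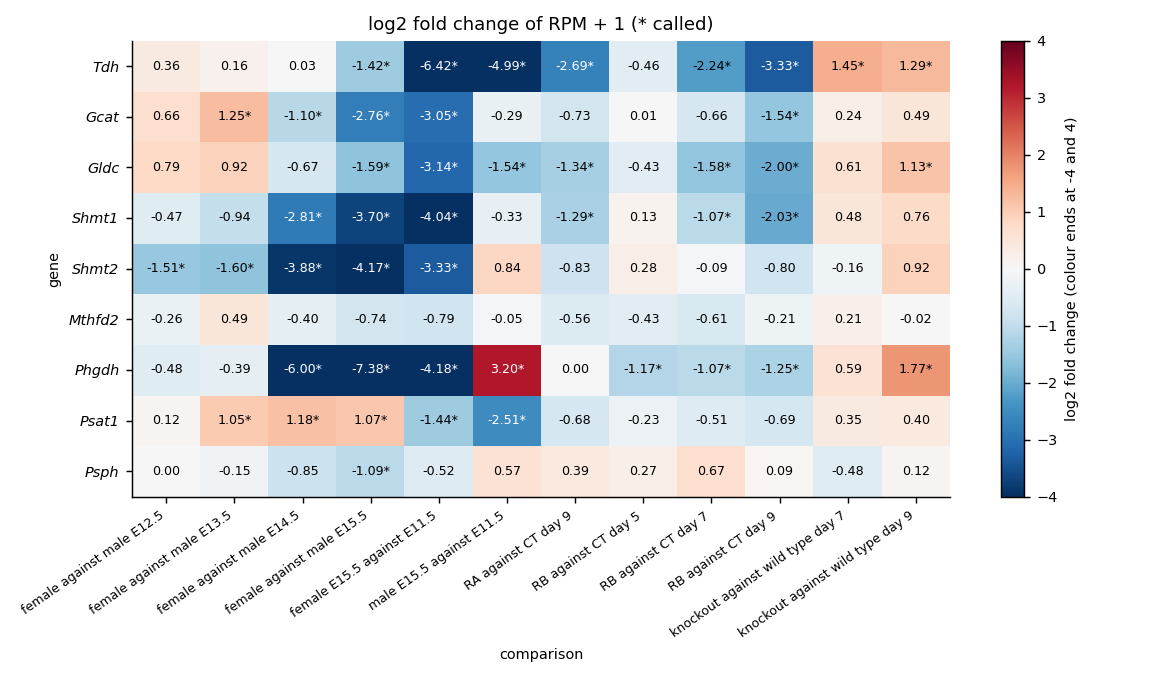
Log2 fold changes of RPM + 1 for the 9 genes (rows) in 12 comparisons (columns); numbers are the fold changes, a star marks a call, and the colour scale ends at −4 and 4. Most calls are negative, and the positive ones are Phgdh in E15.5 males, Psat1 and Gcat in females, and Tdh, Gldc and Phgdh in the knockout.

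The 7 single libraries have no replicate, and their values are given without a test. The library 0R3B of day 9, whose name the labels do not explain, had 8.19 RPM of Tdh, 8.93 of Gcat, 44.7 of Gldc, 10.8 of Shmt1, 15.6 of Shmt2 and 5.95 of Phgdh. Psat1 was at 107 RPM, Psph at 53.6 and Mthfd2 at 40.9 RPM. For all of the 9 genes but Mthfd2 this was below every RB library of day 9 in the 129S1:C57BL/6 line. In the C57BL/6 line the library c7RB of day 9 had 162 RPM of Tdh and 239 of Gldc, beside 258 and 429 RPM in c7CT of day 9. Phgdh was at 36.5 RPM in c7RB and 28.8 RPM in c7CT. At day 2, Tdh was at 432 RPM in c0RB and 472 RPM in c0CT, and the library of day 0 had 556 RPM.

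Across the 30 replicated groups, Tdh ran from a mean of 591 RPM at day 0 and 544 RPM in CT cells of day 3 down to 11.8 RPM in E15.5 males and 3.81 RPM in E15.5 females. Below the top groups came a run of neighbours that overlap (E10.5, wild-type and knockout CT cells of day 3, CT of day 5 and E9.5, with means of 424.7 to 494.5 RPM). Another such run takes in RB of day 7, wild-type RB of day 7, knockout RB of day 9, RA of day 9 and RB of day 9 (35.8 to 86.7 RPM). Wild-type RB cells of day 9 (23.2 RPM) came next, clear of the groups beside them. Phgdh had another order, with E15.5 males (348 RPM), E14.5 males (218 RPM), day 0 (135 RPM) and E9.5 (80.6 RPM) at the top and clear of each other. Then came a run of 24 groups, each overlapping the next, from knockout RB cells of day 9 (48.8 RPM) to wild-type RB cells of day 9 (13.46 RPM), and last the females of E14.5 (2.42 RPM) and E15.5 (1.14 RPM). Between its highest and lowest group in the embryo Mthfd2 ranged 2.05-fold and Psph 2.17-fold, with E15.5 females the lowest for both.

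**Figure D5:**
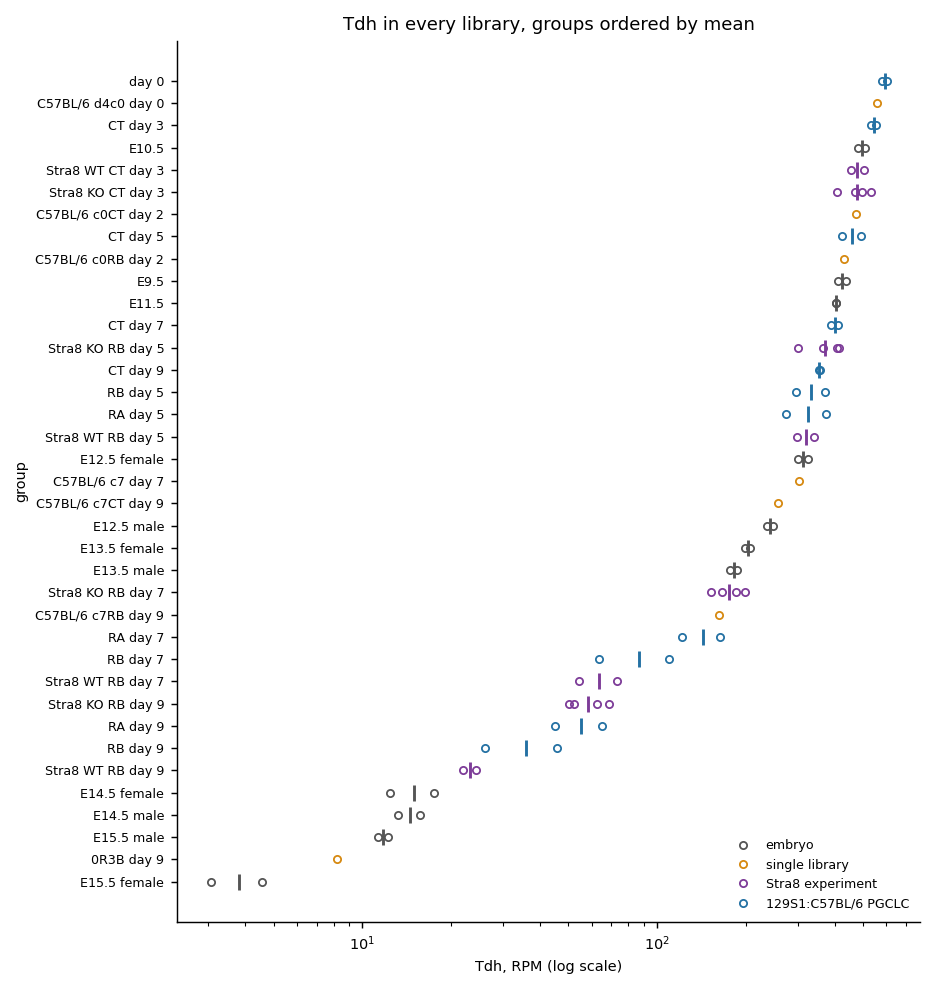
Tdh in all 75 libraries, in RPM on a log axis, with the 37 groups ordered by mean. Circles are libraries, coloured by experiment, and upright bars are means of replicated groups. Day 0 PGCLCs are at the top with 591 RPM and E15.5 females at the bottom with 3.81 RPM.

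As a description, over the means of the 30 groups (on the log2 scale, from 3 experiments that share a method) Tdh was most alike to Gldc among the other 8 genes (Pearson r 0.881), then to Psat1 (0.852), and Shmt1 to Shmt2 (0.853). Phgdh was most alike to Shmt2 (0.738, and 0.863 over the 11 embryo groups) and had r of −0.129 with Psat1, its neighbour in the pathway (−0.300 in the embryo). Among the 9700 genes with a group mean of at least 20 RPM, those most alike to Tdh were Dusp4 (0.978), Mycn (0.977), Phb2 (0.971), Mybl2 (0.969) and Prdx2 (0.967). Those most alike to Shmt1 were Rcc2 (0.976), Rnaseh2a (0.967), Utf1 (0.966), Pou5f1 (0.961) and Ppil1 (0.960). Those most alike to Phgdh were H3f3a (0.903), Tagln2 (0.903), Fam168b (0.876), Tspan31 (0.875) and Cln3 (0.872).

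Beyond the 9 genes, 6 lists of 51 related genes were followed, of which 43 could be tested in the embryo and 41 in each PGCLC experiment. These lists were chosen with results of these data known. Between the sexes at E15.5, 4 rose and 23 fell in females (median log2 fold change −1.15, and −0.14 over all genes), where 53.6% of all genes were called. Of the partners of Gldc in glycine cleavage, the carrier protein Gcsh was at 22.03 RPM in females and 292 RPM in males (log2 fold change −3.71) and Amt at 0.748 and 3.42 RPM in the same order, while Dld, a subunit shared with other dehydrogenase complexes, was at 245 RPM in females and 70.8 RPM in males (1.77). In the folate list 2 of 13 genes rose and 7 fell, the deepest being Fpgs, which traps folate in the cell (−2.79), the mitochondrial synthetase Mthfd1l (−2.29), Ggh, which releases folate from its polyglutamate tail (−1.72), and the folate receptor Folr1, at 0.443 RPM in females and 4.54 RPM in males. In the methionine list 1 rose and 6 fell of 10. Its synthetases split, with Mat1a at 0.418 RPM in females and 22.1 RPM in males and Mat2a at 309 RPM in females and 71.7 RPM in males (2.10). Bhmt2 was at 0.608 RPM in females and 16.5 RPM in males, and Cth fell by 1.74. Of 5 genes of serine and glycine transport and use, 4 fell: the carriers Slc6a9 (0.735 RPM in females and 5.97 RPM in males), Slc38a2 (−1.93), Slc1a5 (−1.54) and Slc1a4 (−1.15). Of 6 purine genes Pfas fell (−1.27). In the Atf4 response list Trib3 (0.291 RPM in females and 14.51 RPM in males), Aldh18a1 (−2.12) and the asparagine synthetase Asns (−1.93) fell among 6 tested. No fold is given for genes with under 1 RPM in females, where libraries held few reads. At E12.5 the same 43 genes gave 1 higher and 2 lower (6.53% of all genes).

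In RB against CT cells of day 9, 3 of the 41 related genes rose and 14 fell (median −0.48, and 0.19 over all genes), beside 36.7% of all genes. Amt fell by 2.50 and Gcsh by 1.15 while Dld rose by 1.16. Fpgs (−1.54), Folr1 (−1.22) and the cytosolic synthase Mthfd1 (−1.20) fell, and Mtfmt, which formylates the mitochondrial initiator tRNA, rose (1.15). Cbs (1.14 RPM in RB cells and 11.0 RPM in CT cells) and Mtap (−1.91) fell in the methionine list, Slc1a5 (−1.20) and Slc38a2 (−1.09) among the carriers, and 3 of 5 purine genes fell, Ppat (−1.41), Paics (−1.36) and Gart (−1.05). In the Atf4 list Asns fell (−1.41) and Ddit3 rose (1.63).

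In knockout against wild-type RB cells of day 9, 7 of the 41 rose and none fell (19.1% of all genes were called). They were Mthfd1l (85.1 RPM in the knockout and 22.1 RPM in the wild type, log2 fold change 1.90), Folr1 (1.30), Mthfd1 (1.14), Cth (1.605), Mtap (1.28), Trib3 (1.41) and Asns (1.15). The growth of the difference from day 3 to day 9 was called for 9 of the 41, all upward. Of all genes 14.9% were called in either direction and 8.66% upward.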

How the data were processed

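Per the submitters' processing notes, reads were trimmed with cutadapt 1.11 and handled with TopHat 1.4.1, Bowtie 1.0.1 and Cufflinks 2.2.0 on mm10. The deposited table holds signal for 26218 genes and 96 spike-ins in 75 libraries, in RPM, which the authors scaled to a common total of reads on genes; the counts behind it could not be fully recovered, so no count model was run. Here 2777 values under 0.001 RPM were set to 0, genes with at least 5 RPM in 2 libraries of an experiment were kept, and log2(RPM + 1) was fitted with limma 3.58.1 (R 4.3.3, trended variance), with a mean for each group. The embryo (22 libraries), 129S1:C57BL/6 (22) and Stra8 (24) experiments were fitted separately, on 12567, 11873 and 12206 genes. The fit was tested on simulated data. A call needs a Benjamini-Hochberg adjusted p under 0.05 and a log2 fold change of 1 or more in either direction.

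Depth was estimated from the step of low values (median 3.12 M reads). The 9 genes are always named. For each gene shown with its most alike genes, the 5 of highest Pearson r are named, and from each pathway list up to 4 called genes with the largest change. The members, lists and tests were chosen with earlier results of these data known. Alternatives were pseudocounts of 5 and 0.25, no filter, a filter at 20 RPM, median centring, quantile normalization, the replicate number as a block, averaged SK1 libraries, and each library left out. Promoter sequences are RefSeq's, GRCm38.p6.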

Additional observations from a re-analysis of the deposited data

Results flagged for a closer look

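In knockout RB cells of day 9, the SK2 library, the only one of its line there, had less Shmt1 than the others. It stood at 36.6 RPM, and the others at 49.3, 50.2 and 51.3 RPM, a gap of 0.864 of the whole range. It was the only such library in 36 checks of a gene in a group of 4, where chance alone gives about 1 in 20.

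For 7 genes the difference between female and male germ cells was another at E15.5 than at E12.5, each tested as an interaction (limma). The changes on the log2 scale were −1.79 for Tdh (SE 0.22, adjusted p = 2.33e-07), −3.42 for Gcat (SE 0.24, adjusted p = 2.72e-11), −2.39 for Gldc (SE 0.22, adjusted p = 4.32e-09), −3.23 for Shmt1 (SE 0.22, adjusted p = 2.66e-11), −2.66 for Shmt2 (SE 0.42, adjusted p = 1.02e-05), −6.90 for Phgdh (SE 0.37, adjusted p = 3.71e-13) and −1.09 for Psph (SE 0.27, adjusted p = 0.00155).

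The difference between RB and CT cells changed between day 5 and day 9 for 5 genes. The changes were −2.86 for Tdh (SE 0.34, adjusted p = 7.59e-07), −1.55 for Gcat (SE 0.26, adjusted p = 6.59e-05), −1.57 for Gldc (SE 0.22, adjusted p = 6.49e-06), −2.16 for Shmt1 (SE 0.28, adjusted p = 3.48e-06) and −1.08 for Shmt2 (SE 0.30, adjusted p = 0.00668).

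The difference between knockout and wild-type cells changed between CT day 3 and RB day 9 for 3 genes. The changes were 1.30 for Tdh (SE 0.21, adjusted p = 3.59e-05), 1.15 for Gldc (SE 0.20, adjusted p = 8.39e-05) and 2.31 for Phgdh (SE 0.42, adjusted p = 0.000141). Culture and day changed together in this contrast and cannot be told apart.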

How the results depend on the processing

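No direction of a called value turned under any alternative run. Of 1001 alternative values for the 80 called results on single genes, 965 stayed called and 36 did not; of 2203 for the 181 results that were not called, 46 became calls. The number of the 9 genes called moved by over 1.5 times, or to or from 0, in these cases and, with the replicate block, in RA against CT at day 5. In E13.5 females against E11.5 it was 0 with a pseudocount of 5 and 2 with median centring, in place of 1. In RA against CT cells it was 2 at day 7 with median centring, in place of 1. In RB against CT cells of day 5 it was 0 with no filter on low values, in place of 1. Smaller moves were from 8 to 6 at the lowest for female against male at E15.5, from 5 to 7 at the highest for RB against CT at day 9, and by 1 gene in other comparisons. Leaving out a library gave 0 to 1 genes at E11.5 against E9.5, 1 to 2 in RA against CT at day 7, 0 to 1 in RB against CT at day 5, 0 to 1 in RB against RA at day 7, 1 to 3 in RB against RA at day 9, and 2 to 5 in knockout against wild type at day 9.

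The deviations of same-numbered libraries had correlations over 0.1 in 0 of 55 pairs of embryo groups, 11 of 55 of 129S1:C57BL/6 groups and 8 of 28 of Stra8 groups (highest 0.0541, 0.239 and 0.129). Since this did not hold in every pair, the numbers were not taken to pair the samples. With the replicate block, RA against CT at day 5 called 1 gene in place of 0 (Phgdh, −1.06, adjusted p = 0.042), and Shmt2 passed in the growth of the knockout difference (1.07, adjusted p = 0.04). A block of line and replicate, chosen after seeing the data, gave 0.0436 there.

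Some genes short of a call passed it when a library was left out. At E13.5 between the sexes these were Gldc (1.01 without male replicate 2) and Shmt1 (−1.01 without male replicate 1, −1.06 without female replicate 2). At E14.5 it was Psph (−1.18 without female replicate 1), and at E15.5 Mthfd2 (−1.07 without female replicate 1, and −1.13 against E11.5). Against E11.5 they were Tdh in E13.5 females (−1.02 without female replicate 2) and Gldc in E13.5 males (−1.01 without male replicate 2). The change of the sex difference of Psat1 passed without any of 4 libraries (1.02 at the lowest). Shmt2 passed without CT day 9 replicate 1 in RA (−1.106) and RB (−1.07) against CT.

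The number of all genes called moved by over 1.5 times in 15 of 29 comparisons with a pseudocount of 5, in 12 with a filter at 20 RPM, in 5 with no filter, and in 1 each with a pseudocount of 0.25 and with quantile normalization. For RB against CT at day 7, for example, it was 1287 with a pseudocount of 5 and 1353 with the filter at 20 RPM, in place of 2292. In the E15.5 female libraries 3 reads stand for 0.913 and 0.835 RPM, and Phgdh had 2 and 6 reads there.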
